A study of Mus musculus with 60 samples.

Results

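The heat shock proteins and their co-chaperones were examined as 70 genes, read by 97 of 55681 probes, out of 20018 genes that could be named on the array. The members were Hsp90aa1, Hsp90ab1, Hsp90b1, Hspd1, Hspe1 and Hsph1, together with every gene whose symbol placed it in the Hspa, Hspb, Dnaja, Dnajb or Dnajc series, and each gene was read by its brightest probe. Adult male Muta Mouse animals (a transgenic strain, about 10 weeks old) were given benzo(ghi)perylene in olive oil by oral gavage for 28 days at 6.25 (D1), 12.5 (D2) or 25 (D3) mg/kg-bw/day, or olive oil alone (D0), and tissues were taken 72 h after the last dose. Lung, liver and forestomach of the same 20 mice were measured on 60 two-colour arrays, 5 mice per group, with the tissue RNA in Cy5 and 1 common reference RNA of 11 mouse cell lines in Cy3. The mice are numbered here as 1 to 5 (D0), 6 to 10 (D1), 11 to 15 (D2) and 16 to 20 (D3). All groups carried the same transgenic background, all were male, and olive oil was given to every group.

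Heat shock proteins are molecular chaperones that hold, fold and refold other proteins. HSP70 proteins (Hspa genes) work in cycles of ATP hydrolysis that are driven by J-domain co-chaperones (Dnaj genes) and reset by nucleotide exchange factors such as the HSP110 proteins, HSP90 proteins finish the folding of kinases and receptors, the HSP60 and HSP10 proteins form the folding chamber of mitochondria, and small heat shock proteins (Hspb genes) bind unfolding proteins without ATP. Cytosolic members are known to be induced through heat shock factor 1 when proteins unfold in the cytosol, and the endoplasmic reticulum (ER) members through the unfolded protein response.

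The sites through which these programmes are known to act can be read in the promoters. In the 250 bases before each annotated start (RefSeq, GRCm38.p6), searched on both strands for 56 of the 70 members, the heat shock element of 3 units (GAA, any 2 bases, TTC, any 2 bases, GAA) was found for Hspd1, Hspe1 and Dnajb6, 5.36% of members against 0.514% of 27025 genes. The shorter form GAANNTTC, which lies within the longer one, was found for 10 members (17.9%, against 7.73% of genes), namely Dnaja1, Dnaja4, Dnajb6, Dnajc27, Hspa1a, Hspb1, Hspb3, Hspb6, Hspd1 and Hspe1. The ER stress element (CCAAT, any 9 bases, CCACG) was found for Hspa5, Hsp90b1 and Dnajc3 (5.36%, against 0.13% of genes). Stretches around the matches are given 5′ to 3′ on the strand of the gene, with the matched bases in capitals, for the genes with the element of 3 units, for the 3 ER genes, and for Hspa1a and Hspb1 as examples of the shorter form. Dnaja1, Dnaja4, Hspb6, Dnajc27 and Hspb3 also carry the shorter form and are not printed. Hspd1 and Hspe1 lie head to head, and 1 of the 2 annotated starts of Hspd1 lies 216 bases from that of Hspe1, so the stretch shown for Hspe1 (chr1:55088029-55088106, plus strand, 2 overlapping matches) also lies upstream of that Hspd1 start but not of the other. The others are Dnajb6 (chr5:29735822-29735894, plus), Hspa1a (chr17:34972223-34972290, minus), Hspb1 (chr5:135887772-135887859, plus), Hspa5 (chr2:34771995-34772073, plus), Hsp90b1 (chr10:86705503-86705686, minus, with 1 match in each orientation) and Dnajc3 (chr14:118937797-118937875, plus). A match is a run of letters, and no binding was measured.
Hspe1: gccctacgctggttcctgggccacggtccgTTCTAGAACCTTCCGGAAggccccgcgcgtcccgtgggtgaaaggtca
Dnajb6: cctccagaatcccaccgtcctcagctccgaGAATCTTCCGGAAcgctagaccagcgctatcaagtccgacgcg
Hspa1a: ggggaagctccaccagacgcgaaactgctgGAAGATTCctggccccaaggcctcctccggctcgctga
Hspb1: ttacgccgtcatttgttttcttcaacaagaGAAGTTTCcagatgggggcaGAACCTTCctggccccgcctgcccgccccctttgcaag
Hspa5: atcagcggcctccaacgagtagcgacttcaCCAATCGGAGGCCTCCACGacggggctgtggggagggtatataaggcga
Hsp90b1: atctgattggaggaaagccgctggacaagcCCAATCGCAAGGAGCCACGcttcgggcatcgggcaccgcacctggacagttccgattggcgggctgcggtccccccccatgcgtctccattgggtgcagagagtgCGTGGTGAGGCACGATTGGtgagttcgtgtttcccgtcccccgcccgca
Dnajc3: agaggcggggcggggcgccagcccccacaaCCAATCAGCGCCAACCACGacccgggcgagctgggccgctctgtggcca

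Values are log2(Cy5/Cy3) after loess normalization within each array, so 1 unit is a 2-fold difference in signal relative to the cell-line reference, and values are compared between samples for 1 gene and not between genes. A probe was tested in a tissue when it stood well above background on at least 5 of its 20 arrays, which kept 61 members in lung, 59 in liver and 58 in forestomach, 63 in any tissue and 55 in all 3. Dnajb7, Dnajb8, Dnajc27, Dnajc5g, Dnajc6, Hspa12a and Hspb3 passed in no tissue, Hspa1b and Dnajb5 had no matched probe and were not analysed here, and the Hspa1a probe may share signal with the near-identical Hspa1b. The share of probes well above background ran from 21.3% to 58.6% over the arrays. The 4 lung epithelium markers averaged 7.31 to 7.99 in lung, the 4 hepatocyte markers 7.23 to 8.27 in liver and the 4 keratinocyte markers 3.31 to 4.39 in forestomach, so each tissue carried its own defining markers. Many libraries also carried markers of other tissue. The 8 skeletal muscle markers averaged 4.55 in the lung of vehicle mouse 1, which also had keratinocyte markers at 3.45, and -1.06 to 0.16 in the other lungs. The forestomach of vehicle mouse 2 had lung epithelium markers at 6.54, and 1 D3 lung had hepatocyte markers at 3.98. Over all forestomachs the hepatocyte markers reached 4.47 (median 2.02), the fat markers 6.75 and the glandular stomach markers 0.11 to 7.57, and over all lungs the fat markers reached 5.67 and the heart muscle markers 4.57. Their part in the results was not tested.

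Among vehicle mice and the members tested in all 3 tissues, 8 of 9 mitochondrial and 7 of 11 ER members were higher in liver than in lung, and 5 of 9 and 8 of 11 were higher in liver than in forestomach. Of the 9 cytosolic members 6 were higher in lung than in liver, and the small heat shock proteins that differed from forestomach were higher there. Of these 55 members, 36 differed between lung and liver at an adjusted p of at most 0.05 and at least 1.5-fold (limma, Benjamini-Hochberg over all probes), 18 in each direction, where 50.9% of the 22013 probes tested in all 3 tissues did and 27.8% were higher in lung. For liver and forestomach 31 differed, 17 of them higher in liver (45.7% of those probes, 21.8% higher in liver), and for lung and forestomach 19 differed, 12 of them higher in lung (37.8%, 20.8% higher in lung). The other 8 members (Dnajb11, Dnajb13, Dnajb3, Dnajc22, Dnajc28, Dnajc5b, Hspa1l and Hspb7) passed the filter in some tissues only, which in itself selects for a difference between tissues. With them 40 of 63 differed between lung and liver, 20 of them higher in lung (44.4% and 25.4% of all probes), 35 between liver and forestomach, 20 higher in liver (39.2% and 18.2%), and 20 between lung and forestomach, 13 higher in lung (33.3% and 18.8%). The lung majority of these 20 (65%) was 53.1% of 32 members with the scanner's processed signals and 45.8% of 24 with the mean over all 4 doses. Lung and forestomach shared slides 1 to 5 and liver had slides 6 to 8, so a difference of liver from the others and a slide difference cannot be told apart. In bulk tissue, fewer cells of a type and less RNA per cell cannot be told apart either.

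**Figure D1:**
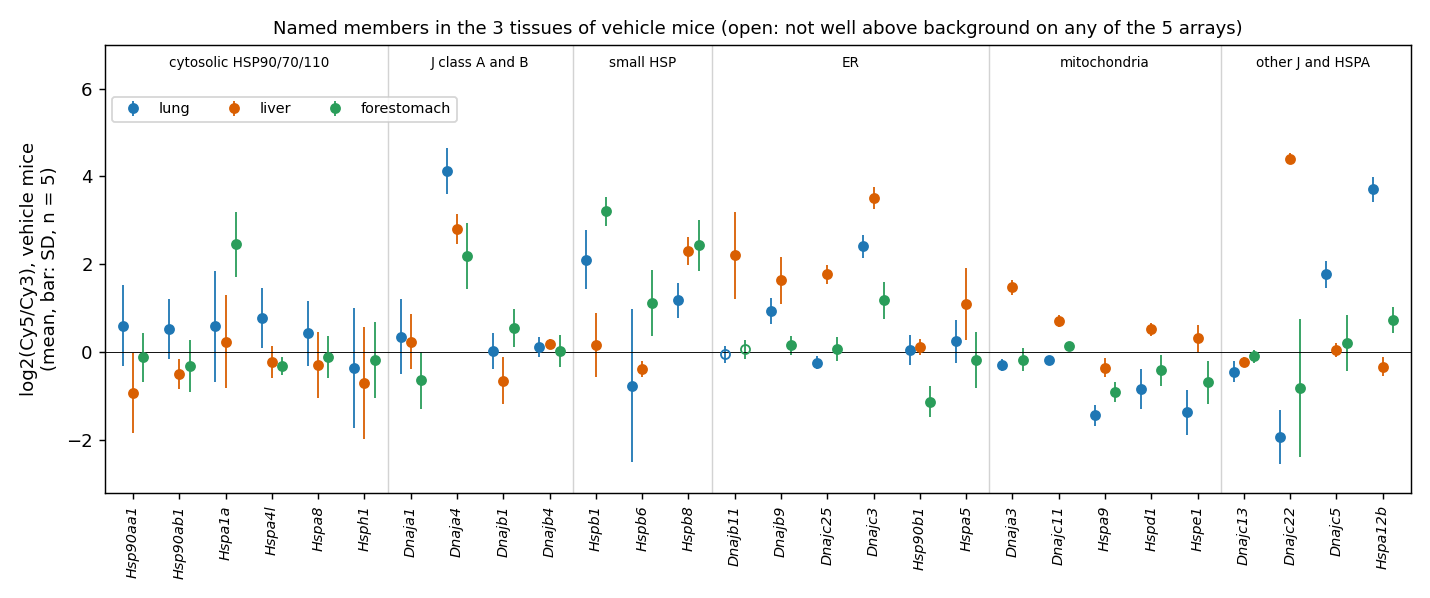
Mean log2(Cy5/Cy3) of the 28 named members in lung, liver and forestomach of the 5 vehicle mice, with bars of 1 SD, grouped by role. Dnajc22 stood at 4.40 in liver and Hspa12b at 3.70 in lung, far from their other tissues, and the 5 mitochondrial members were each highest in liver.

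By the brightest probes the mitochondrial differences that passed ran one way. Of the 9 mitochondrial members tested in all 3 tissues 8 were lower in lung than in liver and none higher, and 5 were higher in liver than in forestomach and none lower, where 23.1% and 21.8% of probes tested in all 3 tissues were higher in liver. Between lung and forestomach 3 differed, all 3 higher in forestomach (17% of those probes). For 1 of these, Dnajc19, the brightest probe read -0.99 in lung and -0.27 in forestomach, but its second probe read 1.43 and 1.32. In fits that left out 1 vehicle mouse, 2 to 4 of the 10 mitochondrial members tested in any tissue were called there, all higher in forestomach. Hspd1, the HSP60 subunit of the mitochondrial folding chamber, read 0.42, 0.71, 0.37, 0.45 and 0.65 in liver of vehicle mice 1 to 5, against -0.99, -0.03, -1.0, -1.0 and -1.18 in lung and -0.88, -0.08, -0.05, -0.56 and -0.49 in forestomach. Every liver lay above every lung and every forestomach, and the lung of mouse 2 stood above the other 4 lungs. The difference of liver over lung was 2.56-fold (log2 lung minus liver -1.36 ± 0.15 SE, adjusted p = 2.13e-11) and that of liver over forestomach 1.90-fold (adjusted p = 4.33e-07). Its partner Hspe1, the HSP10 lid of the chamber, was 3.21-fold higher in liver than in lung (-1.68 ± 0.23 SE, adjusted p = 8.91e-09). Dnaja3, a mitochondrial J-domain protein, was 3.40-fold higher in liver than in lung (adjusted p = 3.9e-18) and 3.14-fold higher than in forestomach (adjusted p = 6.61e-17). Hspa9, the mitochondrial HSP70, was 2.12-fold higher in liver than in lung (adjusted p = 2.43e-11), while its 1.47-fold lead over forestomach missed the fold limit.

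Of the 11 ER members tested in all 3 tissues 9 differed between liver and forestomach, 8 of them higher in liver, and 9 differed between lung and liver, 7 of them higher in liver (21.8% and 23.1% of probes). Between lung and forestomach 4 differed, all 4 higher in lung (20.8% of probes). Dnajc3, a J-domain protein of the ER that is also known to inhibit the stress kinase PERK, stood at 3.51 ± 0.25 in liver, 2.41 ± 0.27 in lung and 1.18 ± 0.43 in forestomach (mean ± SD, n = 5). The liver lead over forestomach was 5.04-fold (limma adjusted p = 1.14e-15), and all 3 tissues were apart without overlap. Hspa5, the ER HSP70 (BiP), read 0.25, 2.10, 1.76, 0.94 and 0.42 in the 5 vehicle livers, a wide spread, against -0.22, 0.98, 0.50, -0.06 and 0.04 in lung. It was 1.80-fold higher in liver than in lung (adjusted p = 0.00827) and 2.42-fold higher than in forestomach (adjusted p = 1.29e-04) although the ranges overlapped. Hsp90b1, the ER HSP90, had means of 0.05 ± 0.34 in lung and 0.12 ± 0.19 in liver, which did not pass the test, and was 2.37-fold higher in liver than in forestomach (adjusted p = 4.67e-08). Dnajb11, a BiP co-chaperone, was well above background in no vehicle lung or forestomach and read 3.28, 0.68, 2.76, 1.86 and 2.42 in liver, which makes it at least 3.20-fold higher than in lung and at least 3.03-fold higher than in forestomach. It passed the filter through liver alone, so these values are a description with no test. Such a bound sets the bright group's mean against the lowest signal that counts as well above background on each dim array, or against the probe's own signal there where that is higher. Dnajc25 was 4.01-fold higher in liver than in lung (adjusted p = 2.44e-21). In a wider list of 17 ER folding and unfolded protein response genes outside the family, 13 were higher in liver than in forestomach and 2 lower, and 10 were higher in liver than in lung and 2 lower, beside 21.8% and 23.1% of probes higher in liver. Of the same list 5 differed between lung and forestomach, 4 of them higher in lung.

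Between lung and liver the cytosolic group ran the other way. Of its 9 members tested in all 3 tissues 6 differed there, all 6 higher in lung (27.8% of probes). Between liver and forestomach 3 differed, all 3 higher in forestomach (23.9% of probes), and between lung and forestomach 3, of which 2 were higher in lung, shares that lay below the 45.7% and 37.8% of probes that differed. Hsp90aa1, the inducible cytosolic HSP90, read -0.23, 2.01, 1.04, 0.23 and -0.02 in the vehicle lungs and -1.82, 0.47, -0.52, -1.40 and -1.36 in the livers of the same mice, a 2.89-fold difference (adjusted p = 7.49e-05). In each of the 5 mice the lung stood above the liver, although the range of the lungs overlapped that of the livers through the high liver of mouse 2. Its constitutive partner Hsp90ab1 was 2.03-fold higher in lung than in liver (adjusted p = 8.81e-05) and Hspa4l, an HSP110 relative, 2.00-fold (adjusted p = 4.89e-05). Hspa8, the constitutive HSP70, was higher in lung than in liver by its brightest probe (log2 difference 0.72, adjusted p = 0.00807). The vehicle means of its 3 probes were 0.43, -0.32 and -0.99 in lung and -0.29, -0.78 and -1.08 in liver, and the mean over them differed by 0.42 and did not pass (adjusted p = 0.114). Hspa1a, the inducible HSP70, read 1.97, 1.80, 1.98, 3.18 and 3.33 in the vehicle forestomachs and between -0.33 and 0.22 in 4 of the 5 lungs, with 2.82 in the lung of mouse 2. It was 3.65-fold higher in forestomach than in lung (adjusted p = 4.97e-04) and 4.64-fold higher than in liver (adjusted p = 3.64e-05), and without mouse 2 these became 6.01-fold and 7.15-fold. Hspa2, an HSP70 relative known from the testis that was named after its values were seen, stood at 1.37 ± 0.24 in lung, -1.19 ± 0.25 in liver and 1.74 ± 0.55 in forestomach (mean ± SD, n = 5), 5.91-fold (lung) and 7.62-fold (forestomach) above liver (limma adjusted p = 5.01e-15 and 4.6e-17). Hsph1, the HSP110 exchange factor, passed between no pair of tissues, with vehicle means of -0.36 ± 1.37 (lung), -0.71 ± 1.28 (liver) and -0.17 ± 0.87 (forestomach).

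Among the 7 J-domain proteins of classes A and B that serve the cytosol and nucleus, 3 differed between lung and liver, all 3 higher in lung, and 3 between lung and forestomach, also higher in lung (27.8% and 20.8% of probes). Between liver and forestomach 5 differed, 3 of them higher in liver. The share that differed between lung and liver lay below the 50.9% of probes, and 1 of those calls, Dnajb1, was kept in 3 of the 5 fits that left out a vehicle mouse. Another, Dnajb6, has 4 probes that disagreed. Their vehicle means were 0.02, 0.02, 0.09 and -0.06 in lung and -0.70, 0.05, -0.58 and 0.15 in liver, in the same order. Dnaja4 had vehicle means of 4.13 ± 0.53 in lung, 2.81 ± 0.34 in liver and 2.19 ± 0.74 in forestomach and was 2.49-fold higher in lung than in liver (adjusted p = 1.91e-05). Dnaja1, an HSP70 co-chaperone for protein folding, was 1.98-fold higher in lung than in forestomach (adjusted p = 0.00102). Dnajb1, the J-domain partner of inducible HSP70, was 2.29-fold higher in forestomach than in liver (adjusted p = 3.51e-06).

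Of the 6 small heat shock proteins tested in all 3 tissues, 3 differed between liver and forestomach and 3 between lung and forestomach, each of them higher in forestomach (23.9% and 17% of probes). Between lung and liver 4 differed, 2 of them higher in each. Hspb2, a small heat shock protein of muscle that was named after its values were seen, stood at 1.96 ± 0.55 in lung, -1.28 ± 0.25 in liver and 2.49 ± 0.65 in forestomach (mean ± SD, n = 5), 9.44-fold (lung) and 13.7-fold (forestomach) above liver (limma adjusted p = 3.41e-17 and 1.12e-19). Hspb1 (HSP25 of the mouse) read 2.76, 3.26, 3.55, 2.99 and 3.49 in the vehicle forestomachs, 2.19, 3.17, 2.09, 1.6 and 1.49 in the lungs and 0.06, 1.40, -0.17, 0.01 and -0.48 in the livers. The forestomachs stood above all livers without overlap, by 8.26-fold (adjusted p = 4.23e-15), and the lungs above the livers by 3.85-fold (adjusted p = 3.76e-09). Hspb6, a small heat shock protein abundant in muscle, stood at 1.12 ± 0.75 in forestomach, 3.67-fold above lung (adjusted p = 1.75e-04) and 2.84-fold above liver (adjusted p = 0.00188). The 6 smooth muscle markers averaged 4.59 to 5.82 in the vehicle forestomachs, 0.60 to 1.5 in the lungs and -2.22 to -1.73 in the livers. They were highest in forestomach, as Hspb6 was. They stood higher in lung than in liver, where the mean of Hspb6 was lower in lung (-0.76 against -0.39). The part of these markers in the result was not tested. In lung, Hspb6 read 2.29 in mouse 1, the library with skeletal muscle markers, and -1.76, -1.01, -1.89 and -1.43 in mice 2 to 5. Without mouse 1 Hspb6 was lower in lung than in liver by 1.11 on the log2 scale and passed the test, where with mouse 1 the difference was -0.37 (adjusted p = 0.454), and its lead in forestomach over lung became 5.77-fold.

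Members outside these groups also differed between tissues. Hspa12b, a divergent HSP70 relative known from endothelial cells, read 3.32, 4.09, 3.61, 3.73 and 3.77 in the vehicle lungs against -0.57 to -0.04 in the livers and 0.52 to 1.23 in the forestomachs, so that lung exceeded liver 16.4-fold (4.03 ± 0.14 SE, adjusted p = 1.67e-31) and forestomach 7.88-fold (adjusted p = 2.33e-24). The 4 endothelium markers averaged 4.25 to 5.12 over all lungs, 1.86 to 2.57 over the livers and 0.57 to 2.67 over the forestomachs, and their part in the result was not tested. Dnajc22 read 4.52, 4.29, 4.42, 4.52 and 4.27 in the vehicle livers and was well above background on 1 of the 5 lung arrays and 2 of the 5 forestomach arrays. With the bound described for Dnajb11, here set largely by the probe's own Cy5 signal on the dim arrays, its liver signal was at least 72.7-fold higher than in lung, where it did not pass the filter, and at least 33.6-fold higher than in forestomach (adjusted p = 8.42e-13). Dnajc5, the cysteine string protein of secretory vesicles, was 3.28-fold higher in lung than in liver by its brightest probe (adjusted p = 4.49e-12), but its 3 probes disagreed, with vehicle lung means of 1.77, -0.59 and -0.66, and the mean over them differed by 0.21 on the log2 scale and did not pass.

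No member passed for any dose against D0 in any tissue. The test of each dose against D0 (limma, adjusted p of at most 0.05 over all probes of the tissue and at least 1.5-fold) called 0 members and 0% of all probes at every dose and tissue, and 0 members with residual shuffling and with slide as a block, under which 0.0677%, 0.0927% and 0% of all probes passed at D3 in the 3 tissues. At an unadjusted p under 0.05 the lung counts were 0, 7 and 11 of 61 members at D1, D2 and D3, against 2.22%, 3.4% and 4.81% of all probes, and all 7 and all 11 were lower than D0, as were 1.55% and 1.93% of all probes. The liver counts were 1, 8 and 11 of 59 members against 3.03%, 4.15% and 12.1% of all probes, and those of forestomach 7, 3 and 2 of 58 against 9.37%, 3.65% and 1.5%. All 8 liver members at D2 were lower (2.42% of all probes), as were 7 of the 11 at D3 (6.72%, with 5.43% higher) and both in forestomach at D3 (0.734%). Without vehicle mouse 2 the D2 counts became 3 in lung (2.6% of all probes), 3 in liver (4.09%) and 2 in forestomach (3.61%). Without vehicle mouse 1 they were 10 (3.21%), 13 (6.13%) and 3 (2.77%). The median difference of the lung members at D3 was -0.08 on the log2 scale, with 43 of 61 below 0, against 0.009 and 47.4% over all probes. Below 0 were 34 of 59 in liver and 30 of 58 in forestomach, against 50.1% and 47.8%. Each dose group lay in its own column of the slides, so dose and column cannot be told apart, and p-values measure the spread between the mice of a group.

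**Figure D2:**
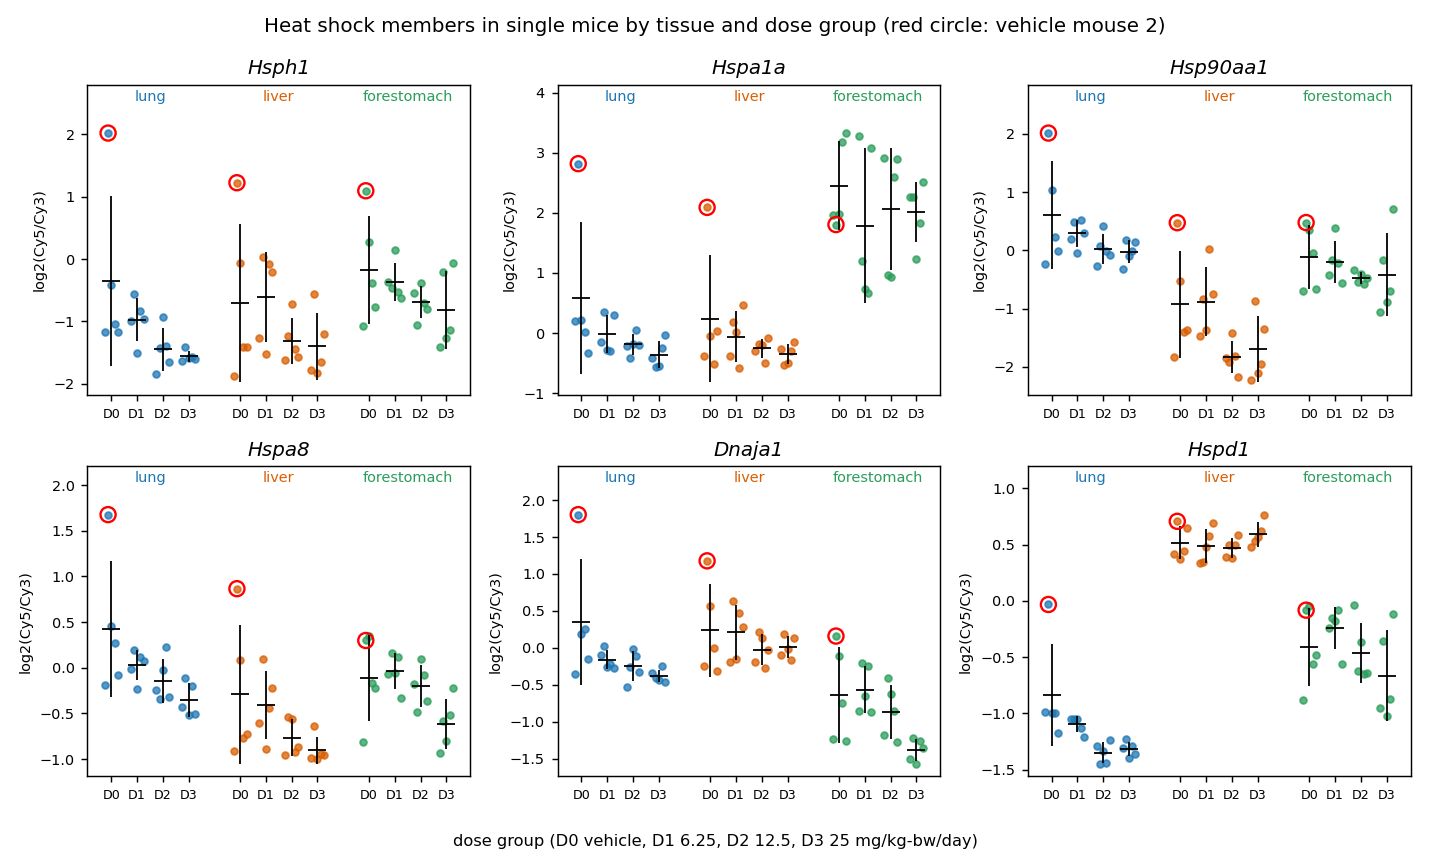
log2(Cy5/Cy3) of 6 members in each mouse by tissue and dose group, 5 mice per group, with horizontal ticks at the group mean and bars of 1 SD, and vehicle mouse 2 circled in red. In lung that mouse stood highest of all 20 mice for each of the 6 genes, and in liver for all but Hspd1, while the D3 lungs stood at -1.56 on average for Hsph1 and -0.36 for Hspa8.

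The lung values of several members lay close together at D3 and were spread widely among vehicle mice by 1 animal. Hsph1 in lung read -1.18, 2.02, -0.42, -1.04 and -1.17 in vehicle mice and -1.64, -1.41, -1.58, -1.57 and -1.6 at D3. No D3 lung reached the lowest vehicle lung, which was true of 0.384% of all probes in that direction, and mouse 2 alone stood above 0. The difference was -1.20 ± 0.42 (SE, unadjusted p = 0.0100, limma adjusted p = 0.897) with all mice and -0.61 ± 0.19 without mouse 2 (unadjusted p = 0.0050). Hspd1 in lung read -0.99, -0.03, -1.0, -1.0 and -1.18 at D0 and -1.30, -1.23, -1.40, -1.29 and -1.36 at D3, again without overlap, and -1.29, -1.45, -1.34, -1.44 and -1.24 at D2, also without overlap (0.297% of all probes). Its difference at D3 was -0.48 ± 0.15 (unadjusted p = 0.00375, limma adjusted p = 0.804) and -0.28 ± 0.07 without mouse 2. Within the 5 slides the D3 lung was lower than the D0 lung of the same slide on all 5, by -1.20 to -0.19.

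Hspa8 in lung read -0.19, 1.68, 0.46, 0.27 and -0.08 at D0, -0.02, 0.19, -0.24, 0.12 and 0.08 at D1, -0.25, -0.34, -0.02, 0.22 and -0.32 at D2, and -0.43, -0.12, -0.52, -0.20 and -0.51 at D3. Group means went from 0.43 through 0.03 and -0.14 to -0.36, and the lowest vehicle lung overlapped with D3. The D3 difference was -0.78 ± 0.24 (unadjusted p = 0.0043, limma adjusted p = 0.840), -0.47 ± 0.15 without mouse 2, and between -0.78 and -0.48 over its 3 probes. Dnaja1, which works with Hspa8, read -0.35, 1.80, 0.18, 0.26 and -0.15 at D0 and -0.34, -0.41, -0.43, -0.25 and -0.46 at D3 in lung. Without mouse 2 its difference went from -0.73 ± 0.26 to -0.37 ± 0.12, and with all mice its 2 probes gave -0.73 and -0.34. Hspa1a read 0.20, 2.82, 0.22, 0.02 and -0.33 at D0 and -0.42, -0.56, -0.55, -0.25 and -0.03 at D3 (difference -0.95 ± 0.39, and -0.39 ± 0.16 without mouse 2). The other 6 lung members below an unadjusted p of 0.05 at D3 were Hsp90aa1 (-0.63), Hspa4l (-0.57), Hspb1 (-0.53), Dnaja4 (-0.46), Dnajb1 (-0.36) and Hspa12b (-0.29). Without mouse 2 their differences were -0.28, -0.28, -0.26, -0.26, -0.21 and -0.19 in the same order, and none of the 6 was below that p (0.100 to 0.186). By role these were 5 of 10 cytosolic members, 3 of 7 J-domain proteins of classes A and B, 1 of 7 small heat shock proteins, 1 of 10 mitochondrial members, 0 of 11 ER members and 1 of 16 others. The median differences were -0.50 (cytosolic), -0.24 (classes A and B) and -0.06 (ER), and that of the 16 others stood above the ER median. Without mouse 2 the members below that p were 3 cytosolic members, 1 of classes A and B and 2 mitochondrial members (Hspd1 and Dnaja3, -0.18), and 0 of the small, ER and other members. With slide as a block 20 lung members had an unadjusted p under 0.05 at D3, 17 of them lower, against 15.6% of all probes (6.21% lower), and the lowest adjusted p over the lung members was 0.0943 (Hspa8). The block gave 11 members in liver (17.9%) and 4 in forestomach (6.41%).

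**Figure D3:**
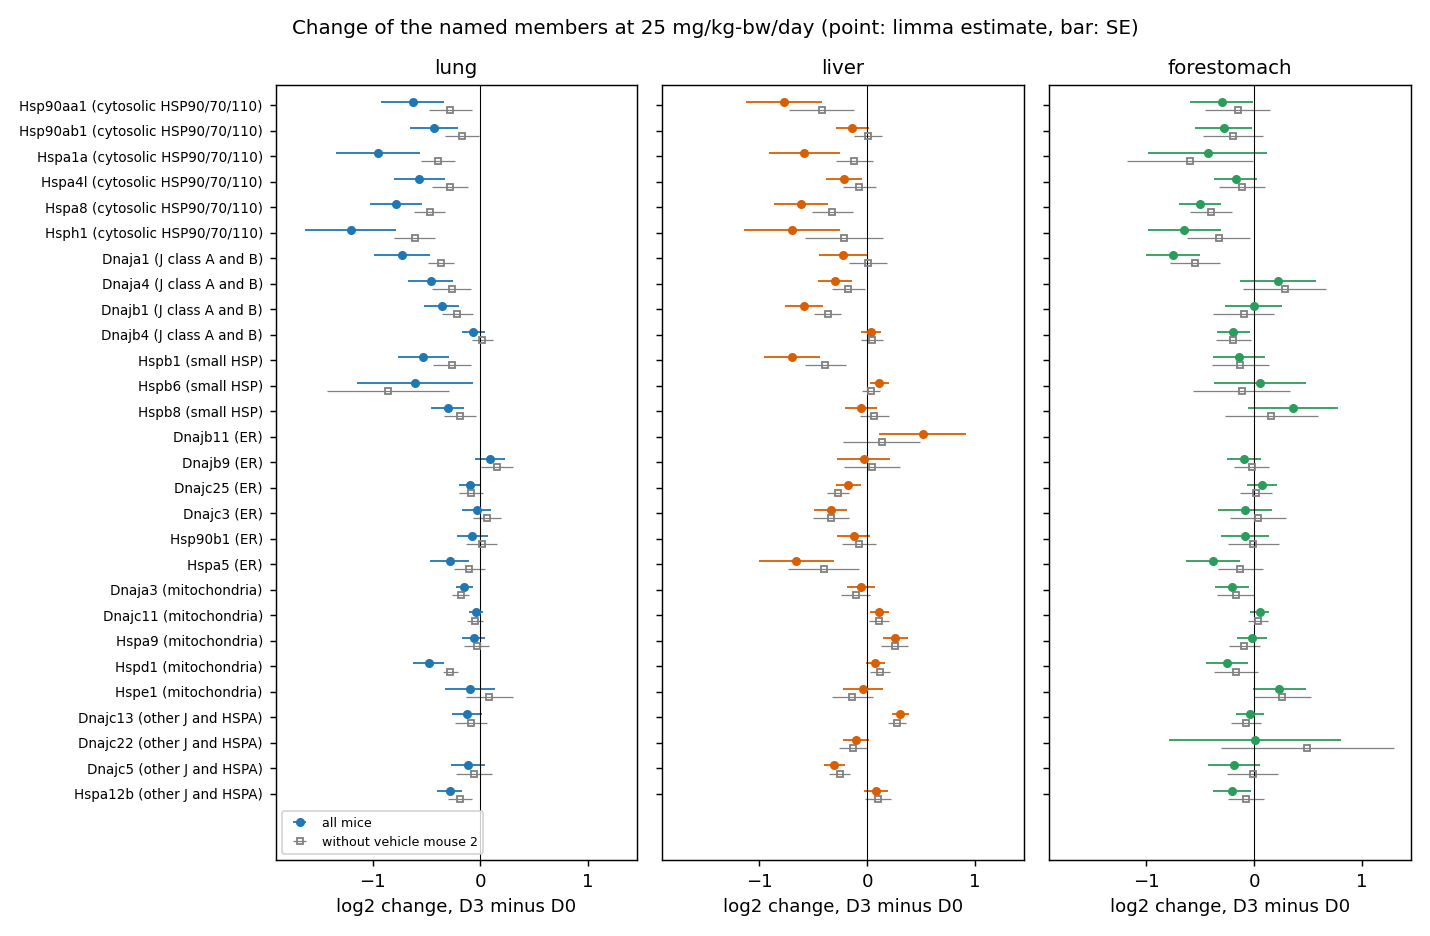
log2 change at 25 mg/kg-bw/day against vehicle for the 28 named members in each tissue, as the limma estimate with its SE, for all mice (filled) and without vehicle mouse 2 (open squares). In lung the cytosolic members moved from -1.20 to -0.61 (Hsph1) and from -0.95 to -0.39 (Hspa1a) when that mouse was left out, and a member not tested in a tissue has no point there.

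Of the 11 liver members below an unadjusted p of 0.05 at D3, Dnajb1, Hspb1, Hsp90aa1 and Hspa8 were also below it in lung. Dnajc13, a J-domain protein of endosomes, read -0.09, -0.35, -0.35, -0.16 and -0.16 at D0 and -0.01, 0.05, 0.04, 0.22 and 0.14 at D3. Every D3 liver stood above every vehicle liver (0.919% of all probes in that direction), and D3 was higher by 0.31 ± 0.08 (unadjusted p = 7.26e-04, limma adjusted p = 0.142). It was higher on each of the 3 slides that held both groups, by 0.11 to 0.43, and by 0.28 without mouse 2. Dnajb1 read -1.10, 0.23, -0.72, -0.65 and -1.02 at D0 and -1.08, -1.42, -1.05, -1.37 and -1.27 at D3. The D3 values overlapped the lower end of D0, and the difference went from -0.59 ± 0.18 (adjusted p = 0.209) to -0.37 without mouse 2. Dnajc5 read -0.14, 0.26, -0.03, 0.02 and 0.19 at D0 and -0.31, -0.29, -0.21, -0.12 and -0.31 at D3, a difference of -0.31 ± 0.10 (adjusted p = 0.221) that lay between -0.31 and -0.003 over its 3 probes. The other 8 below an unadjusted p of 0.05 were Hspb1 (-0.70), Hsp90aa1 (-0.77), Hspa8 (-0.61), Dnajc3 (-0.34), Dnajb14 (-0.23), Dnajc8 (0.32), Hspa9 (0.26) and Dnajc16 (0.20), of which the last 3 were higher at D3. Without mouse 2 Hspb1 (-0.39), Hsp90aa1 (-0.42), Hspa8 (-0.32), Dnajc3 (-0.34), Dnajb14 (-0.18), Hspa9 (0.25) and Dnajc16 (0.20) were no longer below that p (0.0524 to 0.177), and the 5 that were are Dnajc13, Dnajb1, Dnajc5, Dnajc8 (0.30) and Dnajc25 (-0.27).

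In forestomach at D3 both members below an unadjusted p of 0.05 were the HSP70 and J-domain pair also seen in lung. Lung and forestomach came from the same mice and shared slides, so this was not an independent repeat. Dnaja1 read -1.23, 0.16, -0.11, -0.74 and -1.27 at D0 and -1.51, -1.23, -1.57, -1.27 and -1.36 at D3, a difference of -0.75 ± 0.25 (unadjusted p = 0.00735), lower on 5 of 5 slides and -0.55 without mouse 2. Hspa8 differed by -0.50 ± 0.19 (unadjusted p = 0.0177), also lower on 5 of 5 slides, and by -0.40 without mouse 2 (unadjusted p = 0.0580). At D1 the forestomach had 7 members below that p, among 9.37% of all probes. Hsp90b1 (0.65 ± 0.22, limma adjusted p = 0.506), Dnajc12 (1.20), Dnajc22 (1.73) and Dnajc3 (0.52) were higher than D0 (6.36% of all probes), and Dnajc24 (-0.35), Hspb2 (-0.79) and Dnajb4 (-0.33) were lower (3% of all probes). Dnajc22 was well above background on only 2 of the vehicle forestomach arrays, so the size of its difference is uncertain. Without vehicle mouse 1 the D1 count was 4 (6.47% of all probes), of which Hsp90b1 (0.56) was higher and Dnajb4, Dnajc24 and Hspa4l (-0.45) were lower, and without mouse 2 it was 8 (11.8%). The 4 glandular stomach markers averaged 0.11 to 6.06 in the vehicle forestomachs, 0.61 to 7.57 at D1, 0.32 to 6.74 at D2 and 0.17 to 6.19 at D3, with medians of 0.65, 7.00, 6.13 and 3.01, and their part in these values was not tested.

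A straight line on dose passed for no member in any tissue (limma, adjusted p of at most 0.05), where 0.239% of all liver probes and 0% of lung and forestomach probes did. At an unadjusted p under 0.05 those shares were 14.8%, 4.78% and 2.36%. With slide as a block 3 liver members passed, among 2.61% of all liver probes. These were Dnajc13 (0.30 on the log2 scale per 25 mg, adjusted p = 0.0365), Dnajc5 (-0.34, adjusted p = 0.0446) and Dnajb14, an ER J-domain protein (-0.25, adjusted p = 0.0461). Over the 20 fits that left out 1 mouse the calls were kept in 11, 6 and 4 of them, with adjusted p-values up to 0.0931, 0.107 and 0.116 and slopes of 0.26 to 0.35, -0.40 to -0.30 and -0.28 to -0.22. Lung had no member with a slope under the block (0.306% of all lung probes).

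The difference between tissues in the change at D3 was tested directly. No member and no probe passed, and 2, 1 and 2 members had an unadjusted p under 0.05 for lung against liver, lung against forestomach and liver against forestomach, beside 2.96%, 2.06% and 4.26% of all probes. For lung against liver these were Hspd1 (-0.55 ± 0.21, unadjusted p = 0.0117) and Dnajc13 (-0.43 ± 0.16, unadjusted p = 0.0112). The change at D3 was -0.48 in lung and 0.07 in liver for Hspd1, and -0.12 and 0.31 for Dnajc13 (limma).

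Vehicle mouse 2 set much of the spread described above. Averaged over the 10 cytosolic members, its lung stood 1.26 above the mean of all 20 lungs on the log2 scale and its liver 0.90 above that of the livers, the highest of the 20 mice in both tissues, followed by 0.28 (mouse 3) in lung and 0.36 (mouse 9) in liver. It was the highest of the 20 mice for 6 of the 10 cytosolic members in lung and for 6 of 10 in liver. The 7 J-domain proteins of classes A and B gave 0.76 and 0.54, again the highest. In forestomach the cytosolic average was 0.19, the fifth of 20. Measured in the same way, the ER members averaged 0.17, 0.25 and 0.12 in lung, liver and forestomach, and the mitochondrial members 0.12, -0.09 and -0.02. The share of probes well above background in this mouse was 45.0% in lung, 36.3% in liver, the lowest liver, and 25.6% in forestomach, and its part in the values was not tested. Without mouse 2 the members below an unadjusted p of 0.05 at D3 numbered 6 in lung, 5 in liver and 1 in forestomach, against 3.62%, 10.5% and 1.05% of all probes. Without vehicle mouse 1 they numbered 11, 13 and 3, against 4.63%, 13.5% and 1.72%.

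Several members that work together also varied together over the 20 mice of a tissue after removal of dose group means. For 7 fixed pairs in 3 tissues, 21 relations in all, Pearson's r and Spearman's rho were tested with 100000 permutations, and the smallest p these can give is 1e-05. Hsp90aa1 and Hsph1 had r = 0.94 (lung), 0.94 (liver) and 0.88 (forestomach), and 0.85, 0.92 and 0.89 without the 2 mice farthest from the median. Hspa8 and Dnaja1 had r = 0.93, 0.94 and 0.68, and 0.71, 0.87 and 0.55 without such mice. In the ER, Hspa5 and Hsp90b1 had r = 0.81, 0.73 and 0.76, and 0.73, 0.76 and 0.78 without them. In lung the adjusted permutation p for r was 3e-05 for both cytosolic pairs. Dnajb11 ran against Hspa5 in liver (r = -0.64, rho = -0.63, adjusted permutation p = 0.0039 for r), with r = -0.50 without 2 mice and -0.65 with slide means removed. In lung and forestomach Dnajb11 was at background. Hspd1 and Hspe1, which share a promoter stretch, had r = 0.56, -0.21 and 0.22. From different compartments, Hsp90aa1 and Hspa5 had r = 0.90, 0.89 and 0.56. For Hspa8 and Hspd1 r was 0.82 in lung, but 0.40 without mice 1 and 2, so that the lung relation rests on those mice, and it was 0.19 in liver and 0.80 in forestomach (0.73 without mice 1 and 3).

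Because each mouse gave all 3 tissues, the deviation of a member from its dose group mean could be followed from tissue to tissue in 1 animal. This comparison was chosen after the data were seen, for 18 members in 54 relations. Both r and rho passed an adjusted permutation p of 0.05 for 6 members for the lung with the liver, 7 for the lung with the forestomach and 5 for the liver with the forestomach. Hspa5 had r = 0.79, 0.85 and 0.79 for the 3 pairs of tissues, and 0.70, 0.70 and 0.72 without 2 mice each. Hsp90aa1 had r = 0.87 between lung and liver (rho = 0.88, adjusted permutation p = 1.35e-04 for r), 0.76 without mice 1 and 2, and 0.59 with slide means removed. Hsph1 had r = 0.86 and 0.76 without mice 1 and 2. Hspa1a had r = 0.90 between lung and liver (0.76 without mice 2 and 5) and r = -0.12 and -0.10 for lung and liver with forestomach. Dnaja1 was related between liver and forestomach (r = 0.85), and Hspe1 between lung and forestomach (r = 0.78), which shared slides. Mitochondrial Hspa9 gave r = -0.37, 0.003 and -0.46. Over the 55 members tested in all tissues, r reached 0.5 for 13 (lung with liver), 18 (lung with forestomach) and 9 (liver with forestomach), where 5.41%, 29.7% and 4.28% of all probes did. With slide means removed, both r and rho passed for 1 member between lung and liver.

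**Figure D4:**
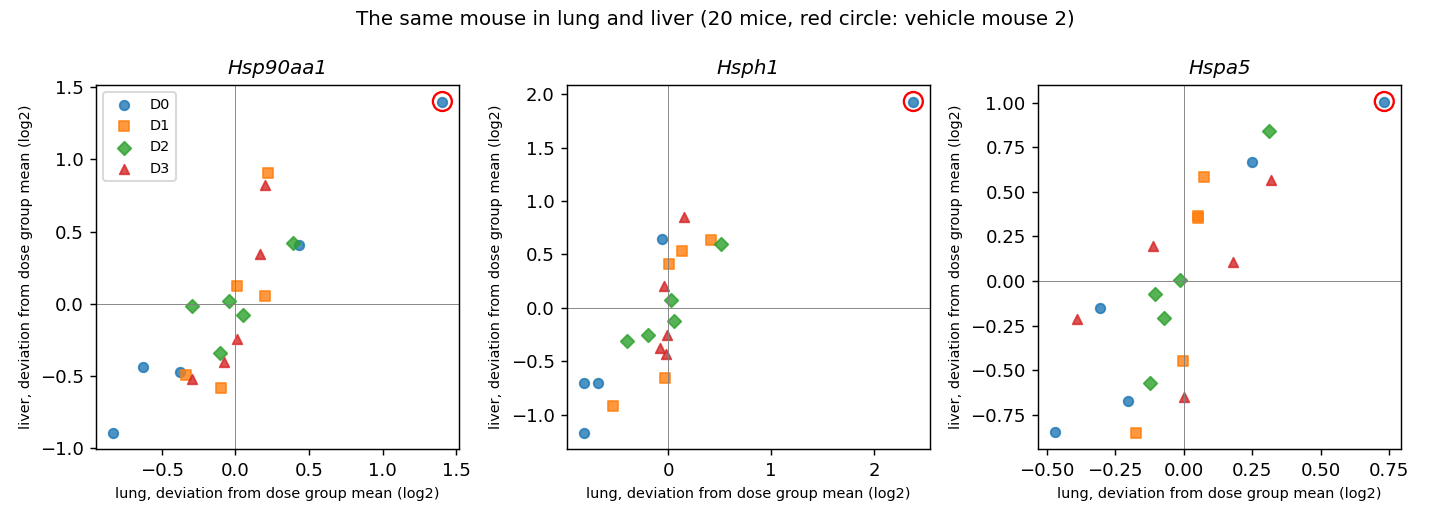
Deviation of Hsp90aa1, Hsph1 and Hspa5 from the dose group mean (log2) in lung (horizontal) and liver (vertical) of the same mouse, 1 point per mouse with its dose group by symbol, and vehicle mouse 2 circled in red. The 20 mice lay along a rising line with r = 0.87, 0.86 and 0.79, and mouse 2 lay at the upper end of each.

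Genes that act with the family but carry other names were read from lists at D3. At an unadjusted p under 0.05 the shares of all probes were 4.81% in lung, 12.1% in liver and 1.5% in forestomach, and the liver counts of the co-chaperone and ER lists given here lay below that share. Of 22 heat shock factor and co-chaperone genes tested, 5 had an unadjusted p under 0.05 in lung, where Stip1 (-0.56), which links HSP70 to HSP90, Chordc1 (-0.48), St13 (-0.37) and Bag2 (-0.25) were lower and Stub1 (0.37), the ubiquitin ligase of chaperone clients, was higher. Liver had 2 (Fkbp4, -0.27, and Bag4, 0.21) and forestomach 1 (Sugt1, 0.43). Of 8 subunits of the cytosolic folding complex TRiC, 1 was lower in lung (Cct5, -0.21) and 1 higher in forestomach (Tcp1, 0.34). Of 17 ER folding genes none in lung, 2 in liver (Atf6, 0.27, and Serpinh1, -0.60) and 1 in forestomach (Creld2, -0.53) were below that p, and of 6 mitochondrial genes 1 in liver (Grpel2, 0.36). None passed after adjustment over all probes.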

How the data were processed

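Per the labels and the study's methods, total RNA of each tissue (Cy5) was hybridised with Universal Mouse Reference RNA (Cy3) to Agilent arrays of 62976 spots, without dye swaps, and the authors extracted the scans with Feature Extraction 10.7.3.1. The deposited files hold median signal intensity per spot and channel, linear and without background subtraction, which was used here, and the program's processed intensity, used as an alternative. The table the authors deposited holds log2 ratios, which correlated at r = 0.992 to 0.999 with those computed here. Their column medians lay between -0.0413 and -0.0143.

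Control spots (3671) and outlier flags (0.460% of values) were left out, no value was saturated, log2(Cy5/Cy3) was normalized by loess within arrays, and spots of a probe were averaged. Probes were named through RefSeq accessions (26413 of 55681 probes, 97.9% of those with curated mRNA accessions); the file headers place probes on mm9, and promoters are from GRCm38.p6. limma 3.58.1 in R 4.3.3 fitted each dose against D0 and a slope on dose within a tissue (20 arrays), and tissue contrasts and interactions over 60 arrays, with Benjamini-Hochberg adjustment over all probes tested (31022 in lung, 25893 in liver, 25070 in forestomach, 33255 in the joint fit). Correlations used scipy 1.17.1. On simulated data for D3, limma recovered 85% of 2-fold changes in lung, 92.5% in liver and 66.5% in forestomach, and 27.5%, 40% and 9.5% of 1.5-fold changes. There 200 random probes were changed, with independent normal noise at each probe's SD within groups and no mouse set apart. In lung Hsph1 and Hspa1a had such SDs of 0.73 and 0.67, so the shares need not hold for them. The number of arrays limits the precision.

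A mouse number marks the same animal in each tissue per the labels, so mouse was a replicate block in an alternative fit. Other alternatives were the slide as a block, the background correction, normalization between arrays, the probe filter, the choice of probe, an intensity trend, residual shuffling (100 shufflings) and leaving out each mouse. Members and gene lists were chosen with earlier results of these data known. Members are named by a rule: a fixed list of known chaperones, any called with dose, the 3 lowest p at D3 and the 4 largest vehicle leads per tissue, and the largest and smallest SD within groups (Dnajc22, 0.847, and Dnajc11, 0.106). Members below an unadjusted p of 0.05 and outside this rule were named after their values were seen, as were Dnajb6 and Dnajc19 for their probes.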

Additional observations from a re-analysis of the deposited data

Results flagged for a closer look

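In 21 of 336 groups of 5 mice (28 named members in 12 groups) 1 mouse stood apart from the other 4 by more than the 95% critical value of Dixon's test, 6.25% where chance gives about 5%. The mouse was the highest of its group in 18 of the 21, and vehicle mouse 2 gave 8 of them. In the lung this mouse read 2.82 for Hspa1a (the next lung 0.22), 2.02 for Hsph1 (-0.42), 1.80 for Dnaja1 (0.26) and -0.0328 for Hspd1 (-0.99). In its liver Hspa1a read 2.09 (0.04), Hspb1 1.40 (0.06) and Hsp90ab1 0.0898 (-0.55), while Dnajc25 was the lowest at 1.39 (1.79). Hspb6 read 2.29 in the lung of vehicle mouse 1 (-1.01), which carried skeletal muscle markers at 4.55.

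The other groups with 1 mouse apart were spread over doses. In lung these were Dnajc11 at D0 (-0.0617, mouse 3), Dnajb1 at D1 (0.0101, mouse 10), Hspa5 at D2 (0.37, mouse 13) and Hsph1 at D3 (-1.41, mouse 17). In liver they were Dnajb11 (3.42, mouse 6), Dnajc3 (4.01, mouse 9) and Hspb1 (0.53, mouse 9) at D1, Hspb1 at D2 (0.15, mouse 11), and Hspa8 (-0.64, mouse 17) and Dnajc25 (1.94, mouse 18) at D3. In forestomach Dnaja4 had a low mouse at D2 (1.15, mouse 13) and at D3 (1.74, mouse 18).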

How the results depend on the processing

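No alternative called a member at a dose against D0. With the mouse as a replicate block, 41, 22 and 35 of the 63 members tested in any tissue differed between lung and liver, lung and forestomach, and liver and forestomach (without it 40, 20 and 35), and leaving out 1 vehicle mouse gave 37 to 40, 19 to 22 and 33 to 37. Over all probes the block gave 44.6%, 33.6% and 39.5%. Among named members it added Hsp90aa1 (adjusted p = 0.00223, without it 0.0649) and Dnajc22 between lung and forestomach and changed no other call. Dnajc22 did not pass the filter in lung and entered through liver and forestomach, so its call is not read as a test. Over the 5 fits that left out 1 vehicle mouse, the named calls printed in the report were kept in all 5, while Dnaja4 and Hsp90aa1 between liver and forestomach were kept in 1 each (log2 0.32 to 0.96 and -1.01 to -0.67), Dnajb1 between lung and liver in 3 (0.57 to 0.81), and Dnajb9 between lung and liver and Hspe1 between lung and forestomach in 4 each (-0.97 to -0.58 and -0.84 to -0.54). Processed signals gave 32 for lung and forestomach, with 53.1% of them higher in lung where the median signals gave 65%, and the mean over all 4 doses gave 24, with 45.8%; the cause was not tested. Liver members with a slope on dose numbered 3 with slide as a block and 0 to 1 without single mice, the 1 being Dnajc13 without vehicle mouse 1. For the same mouse across tissues, leaving out the 2 farthest mice gave 2 (liver and forestomach) and 4 (lung and forestomach), as did leaving out mouse 2 and the next farthest. Removing slide means gave 2, 2 and 1 (liver and forestomach, lung and forestomach, lung and liver). The liver r of Hspd1 and Hspe1 was 0.0686 with slide means removed and 0.10 with processed signals. Members below an unadjusted p of 0.05 at D3 ranged over single mice left out from 6 to 15 in lung (without vehicle mice 2 and 5), 5 (without vehicle mouse 2 or 3) to 13 in liver and 1 (without vehicle mouse 2 or D3 mouse 16) to 4 in forestomach. The pair Hspa1b and Dnajb1 was not run, as Hspa1b had no probe. In the contrasts between tissues, genes near background, such as Dnajb11 and Dnajc22 outside liver, have bounds only. With the mean over the probes of a gene, the lung leads of Hspa8 and Dnajc5 over liver, those of Dnajc5 and Dnajb9 over forestomach (0.26 and 0.41) and that of Dnaja4 in liver over forestomach (0.21) did not pass.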

Other observations

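The cold-inducible RNA-binding proteins Cirbp and Rbm3 lay opposite to the cytosolic chaperones in the lung of vehicle mouse 2. In its liver Cirbp did so too, while Rbm3 was close to that of mice 1 and 5. Cirbp in lung read 1.03, -1.22, 0.63, 0.60 and 0.73 in vehicle mice 1 to 5 and 0.95, 1.00, 1.33, 1.07 and 1.26 at D3, and in liver 0.02, -2.22, -0.90, -0.45 and -0.70 at D0. Mouse 2 was the lowest vehicle mouse in both tissues and, at -0.73, in forestomach. Rbm3 in lung read -0.62, -1.96, -1.22, -1.07 and -1.18 at D0 and -0.67, -1.02, -0.36, -0.87 and -0.80 at D3. The D3 difference in lung was 0.77 ± 0.27 for Cirbp (SE, unadjusted p = 0.0111, limma adjusted p = 0.897) and 0.46 ± 0.20 for Rbm3 (unadjusted p = 0.0294), in forestomach 0.47 ± 0.19 for Cirbp (unadjusted p = 0.0230), and no cold-inducible gene passed after adjustment. Without mouse 2 the lung differences were 0.38 ± 0.12 for Cirbp (unadjusted p = 0.0041) and 0.28 ± 0.17 for Rbm3 (unadjusted p = 0.121), and that of Cirbp in forestomach was 0.36 ± 0.19 (unadjusted p = 0.0776). In liver Rbm3 gave -3.10, -3.17, -2.75, -2.68 and -3.12 at D0 and its D3 difference was -0.23.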
